A study of Mus musculus with 8 samples.

Results

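The 10 genes *Nkx2-1*, *Six3*, *Six6*, *Rax*, *Otp*, *Sim1*, *Nr5a1*, *Fezf1*, *Hmx2* and *Hmx3*, which encode transcription factors of the hypothalamus, were followed across newborn mouse brains after maternal cadmium (Cd) exposure. They were chosen by name with earlier results of these data known, and were found through their Ensembl identifiers. All 10 were present among the 49585 genes counted. The other gene lists used below were also written with earlier results known. Counts of these genes set beside shares of all genes are therefore descriptions. Whole-brain RNA-seq libraries came from newborn (postnatal day 1) B × C females, the F1 pups of C57BL/6J (B) mothers and CAST/EiJ (C) fathers. The dams drank water with 0 ppm Cd (4 brains) or 50 ppm Cd as CdCl2 (4 brains) from before mating until birth, and each pup came from a different litter. All pups of both groups were thus hybrids of the same cross, age and sex, and Cd reached them through the dam. Replicate numbers only name the brains, and the 8 brains are called 0 ppm brains 1 to 4 and 50 ppm brains 1 to 4.

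The hypothalamus forms in the ventral forebrain, below the thalamus, and controls feeding, body temperature, water balance, growth and reproduction through its neurons and the pituitary. Its territory is first set up by regional factors such as NKX2-1, SIX3, SIX6 and RAX, and its nuclei are later specified by factors such as OTP and SIM1 (neurosecretory neurons of the paraventricular nucleus), NR5A1 and FEZF1 (ventromedial nucleus) and HMX2 and HMX3 (arcuate neurons). Most of these genes are also used elsewhere: *Nkx2-1* in the medial ganglionic eminence, *Six3* in the striatum, and *Six3*, *Six6* and *Rax* in the eye.

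The sequences just before a RefSeq start of 3 of the genes are shown. *Otp* and *Fezf1* were picked because they varied together more closely than any other pair across the brains. *Six3* was picked because it held 3 CCAAT boxes, as many as *Fezf1* over the whole window described below the sequences. All were read from the RefSeq promoter table for GRCm38.p6, in which 8 of the 10 genes had an entry. The sequences are given 5′ to 3′ on the gene's strand without bases that the annotation places in an exon. Capitals mark the CCAAT box, written CCAAT on this strand or ATTGG where it lies on the other. The *Otp* sequence is chr13:94875386-94875601 (plus strand), the *Fezf1* sequence is chr6:23248363-23248514 (minus strand), and the *Six3* sequence is chr17:85620584-85620789 (plus strand). The *Six3* sequence precedes a RefSeq start inside the annotated span of the gene (85613608 to 85629302), not the first base of that span.
Otp: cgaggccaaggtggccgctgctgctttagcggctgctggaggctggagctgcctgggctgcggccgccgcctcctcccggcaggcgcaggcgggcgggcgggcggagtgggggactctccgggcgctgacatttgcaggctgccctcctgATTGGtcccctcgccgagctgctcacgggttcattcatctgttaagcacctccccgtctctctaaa
Fezf1: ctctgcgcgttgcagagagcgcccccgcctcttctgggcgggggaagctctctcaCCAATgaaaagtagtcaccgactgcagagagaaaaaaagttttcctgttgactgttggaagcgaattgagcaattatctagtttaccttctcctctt
Six3: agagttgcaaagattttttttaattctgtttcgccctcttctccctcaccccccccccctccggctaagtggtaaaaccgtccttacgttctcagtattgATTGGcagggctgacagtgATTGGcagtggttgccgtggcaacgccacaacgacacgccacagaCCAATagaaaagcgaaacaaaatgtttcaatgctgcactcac

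Over the whole window of 250 bases before the RefSeq start, a CCAAT box on either strand was found for 5 of the 8 genes (*Six3*, *Six6*, *Otp*, *Fezf1* and *Hmx2*). Of the 32851 promoters in the table, 33.8% held one. The 8 genes had 9 entries, and a gene was counted if any of its entries matched, while shares are per promoter. Only *Hmx2* had more than 1 entry, and only 1 of its entries held a CCAAT box. The homeodomain core TAAT, which many of these factors can bind, was found for 4 of the 8 genes (*Six3*, *Otp*, *Sim1* and *Fezf1*) against 54.9% of all promoters. The letters CAAGTG, a core bound by NKX2-1, were found for 0 of the 8 genes against 11.6%, and AAGGTCA, a core bound by NR5A1, for 0 of the 8 against 4.08%. A window could hold overlapping matches of both CCAAT and TAAT, which were counted independently. These are matches of letters only.

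Each library held between 22916434 and 30708087 reads counted on genes. CPM are the reads of a gene divided by the TMM-normalised size of the library, scaled to a total of 1000000 reads. On this scale 3 reads corresponded to 0.0980 to 0.132 CPM. Genes at 0 reads in 6 or more of the 8 libraries were set aside, which left 23113 genes for the test between doses, and all 10 of the factor genes were among them. Levels below are on TMM-normalised library sizes and fold changes are from edgeR's quasi-likelihood fit, with Benjamini-Hochberg adjusted p-values over all 23113 genes. In whole brains, fewer hypothalamic cells and less RNA per cell cannot be told apart. The hypothalamus was represented in every brain: *Pmch*, *Avp*, *Pomc*, *Agrp* and *Hcrt*, which encode peptides made by hypothalamic neurons, were above 0 in all 8 libraries, as was *Oxt*, whose lowest level was 0.0714 CPM.

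All 10 genes had lower fitted levels in the 50 ppm brains than in the 0 ppm brains, but none passed the adjusted threshold. The median log2 fold change of the 10 was -0.37, while the median over all tested genes was -0.0033 and 51% of all genes were below 0. The smallest adjusted p was 0.968, and 0.0173% of all tested genes passed an adjusted p of 0.05. DESeq2 also called none of the 10 at an adjusted p of 0.05 (0.0779% of all genes) and gave 2 of them an unadjusted p under 0.05 (2.81% of all genes). Unadjusted p-values under 0.05 were obtained for *Rax* and *Six3*, which is 2 of 10, where 3.75% of all genes had one in either direction and 1.44% had one with a lower level at 50 ppm. For 8 of the 10 genes the 95% interval of the log2 fold change included 0. For none of the 10 did the 4 exposed brains lie below all 4 control brains, an arrangement found in 0.904% of all genes.

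**Figure D1:**
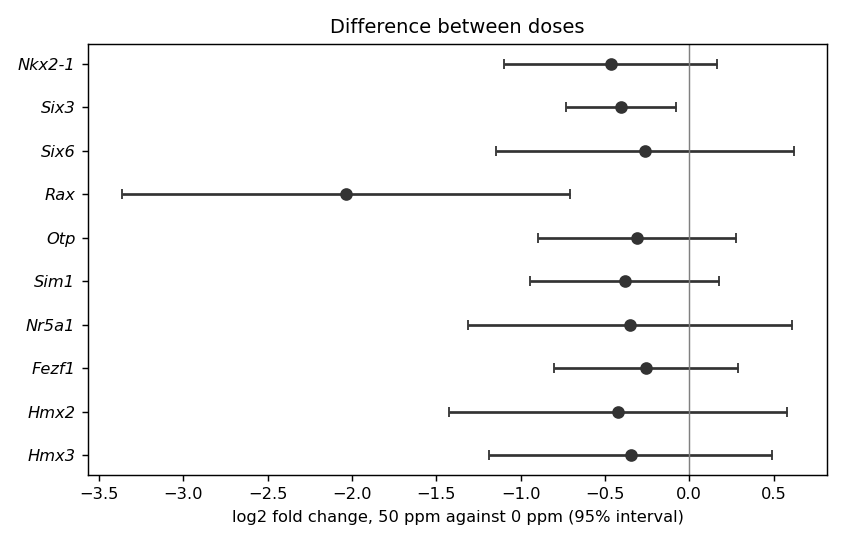
Log2 fold change of each gene between 50 ppm and 0 ppm brains (horizontal axis), with its 95% interval from edgeR's quasi-likelihood fit over 4 brains per dose. All 10 points lie left of 0, and only the intervals of *Six3* and *Rax* leave 0 out.

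*Nkx2-1* (ENSMUSG00000001496, chromosome 12, 56531958 to 56536908, minus strand) encodes a homeodomain factor required for the ventral hypothalamus. In the 0 ppm brains 1 to 4 it was at 9.11, 12.4, 25.8 and 12.6 CPM, and in the 50 ppm brains 1 to 4 it was at 5.82, 19.0, 9.03 and 9.53 CPM. The highest brain was a control and the second highest an exposed one, and the groups overlapped. The log2 fold change was -0.47 (SE 0.30, interval -1.10 to 0.17) with an adjusted p of 0.999 in edgeR.

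*Six3* (ENSMUSG00000038805, chromosome 17, 85613608 to 85629302, plus strand) encodes a homeodomain factor of the anterior forebrain and eye. It was at 19.5, 21.8, 31.1 and 27.1 CPM in the 0 ppm brains and at 12.9, 21.6, 20.4 and 20.3 CPM in the 50 ppm brains. All 4 exposed brains were below the control median of 24.5 CPM, but 3 of them were above the lowest control. The log2 fold change was -0.41 (SE 0.16, interval -0.73 to -0.08), with an unadjusted p of 0.0175 and an adjusted p of 0.999 in edgeR. The unadjusted p was 0.0842 without 0 ppm brain 3 and 0.0736 without 50 ppm brain 1, the lowest of the 8 brains for this gene. Of the exon bases of *Six3*, 5.03% lie opposite those of other genes, among them *Six3os1*, which encodes an antisense RNA. *Six3os1* was at 15.7, 8.15, 18.2 and 16.5 CPM in the 0 ppm brains and at 9.37, 13.9, 10.6 and 10.8 CPM in the 50 ppm brains. Because the strand setting of the counting is not given, it is not known for which of the pair, if either, reads over the shared bases were counted.

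*Six6* (ENSMUSG00000021099, chromosome 12, 72939892 to 72944899, plus strand) encodes a relative of SIX3 that is used in the pituitary, the hypothalamus and the retina. It was at 3.41, 0.484, 1.24 and 1.94 CPM in the 0 ppm brains and at 1.02, 1.65, 0.856 and 2.47 CPM in the 50 ppm brains. The exposed brains all lay within the range of the controls. Between doses the log2 fold change was -0.26 (SE 0.42, interval -1.14 to 0.62) and it became 0.28 without 0 ppm brain 1. Of the exon bases of *Six6*, 4.79% lie opposite those of *4930447C04Rik*, which was at 0.930 to 2.56 CPM.

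*Rax* (ENSMUSG00000024518, chromosome 18, 65928277 to 65939787, minus strand) encodes a homeodomain factor of the early eye field and of tanycytes, the glia that line the floor of the third ventricle. Its level per kilobase of exon was the lowest of the 10 genes, although *Nr5a1* was lower when scaled by the longest transcript. *Rax* had 66, 4, 25 and 12 reads in the 0 ppm brains and 5, 2, 11 and 6 reads in the 50 ppm brains. These counts corresponded to 2.25, 0.149, 0.816 and 0.465 CPM and to 0.175, 0.0702, 0.392 and 0.265 CPM. One control brain exceeded all others, and another control brain, at 4 reads, lay below 3 of the 4 exposed brains. The log2 fold change was -2.04 (SE 0.63, interval -3.37 to -0.71), with an unadjusted p of 0.00477 and an adjusted p of 0.968 in edgeR. Without 0 ppm brain 1 the log2 fold change was -1.10 with an unadjusted p of 0.0704. Of the exon bases of *Rax*, 27.4% lie opposite those of *Raxos1*, on which at most 1 read was counted in any brain; with the strand setting not given, reads over these bases cannot be assigned to either strand.

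**Figure D2:**
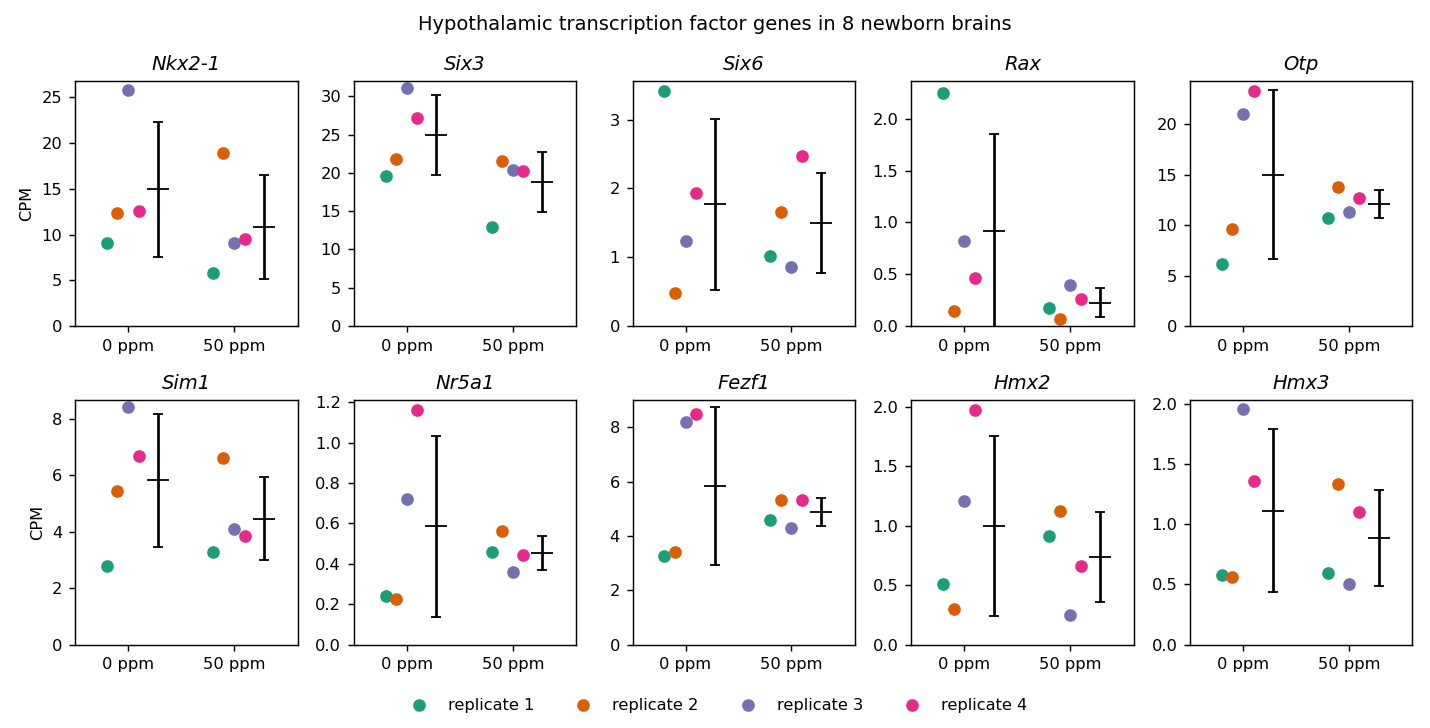
CPM of each gene (vertical axis, starting at 0) in the 4 brains at 0 ppm and the 4 at 50 ppm, coloured by replicate number, which does not pair the brains. Dashes and bars give the mean and SD of each dose (the lower bar of *Rax* at 0 ppm ends at the axis); for *Otp*, *Fezf1* and *Nr5a1* the 4 exposed brains lie inside the range of the controls.

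*Otp* (ENSMUSG00000021685, chromosome 13, 94875602 to 94885130, plus strand) encodes a homeodomain factor needed for neurosecretory neurons. It was at 6.14, 9.60, 21.03 and 23.3 CPM in the 0 ppm brains and at 10.7, 13.8, 11.3 and 12.7 CPM in the 50 ppm brains. The controls fell below and above the exposed brains, brains 1 and 2 below and brains 3 and 4 above, and the coefficient of variation was 56.0% at 0 ppm and 11.6% at 50 ppm. Its log2 fold change was -0.31 (SE 0.28, interval -0.89 to 0.28).

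*Sim1* (ENSMUSG00000019913, chromosome 10, 50894754 to 50989152, plus strand) encodes a bHLH-PAS factor that acts with OTP in the same neurons and is known for its role in feeding. It was at 2.77, 5.43, 8.39 and 6.66 CPM in the 0 ppm brains and at 3.26, 6.60, 4.10 and 3.84 CPM in the 50 ppm brains. All 4 exposed brains lay within the range of the controls. The fitted difference on the log2 scale was -0.38 (SE 0.27, interval -0.94 to 0.18).

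*Nr5a1* (ENSMUSG00000026751, chromosome 2, 38692656 to 38714542, minus strand) encodes SF-1, a nuclear receptor that in the brain marks the ventromedial nucleus. It had 7, 6, 22 and 30 reads in the 0 ppm brains and 13, 16, 10 and 10 reads in the 50 ppm brains, or 0.239, 0.223, 0.718 and 1.16 CPM against 0.456, 0.562, 0.357 and 0.441 CPM. *Fezf1* (ENSMUSG00000029697, chromosome 6, 23245044 to 23248362, minus strand) encodes a zinc finger factor of the same nucleus. It was at 3.24, 3.42, 8.20 and 8.48 CPM in the 0 ppm brains and at 4.60, 5.30, 4.28 and 5.34 CPM in the 50 ppm brains. Both genes showed the arrangement seen for *Otp*, with 2 controls below and 2 above all exposed brains. The log2 fold change was -0.35 (SE 0.46, interval -1.31 to 0.61) for *Nr5a1* and -0.26 (SE 0.26, interval -0.80 to 0.29) for *Fezf1*.

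*Hmx2* and *Hmx3* are neighbours on chromosome 7 (ENSMUSG00000050100, 131548773 to 131558014, and ENSMUSG00000040148, 131542867 to 131544925, both plus strand) and encode homeodomain factors of arcuate neurons and of the inner ear. *Hmx2* was at 0.512, 0.298, 1.21 and 1.97 CPM in the 0 ppm brains and at 0.912, 1.12, 0.250 and 0.662 CPM in the 50 ppm brains. *Hmx3* was at 0.580, 0.558, 1.96 and 1.36 CPM in the 0 ppm brains and at 0.596, 1.33, 0.4996 and 1.10 CPM in the 50 ppm brains. For both genes 50 ppm brain 3 was the lowest and 0 ppm brains 3 and 4 were the highest, closely followed by 50 ppm brain 2. The log2 fold change was -0.42 (SE 0.48, interval -1.42 to 0.58) for *Hmx2* and -0.35 (SE 0.40, interval -1.19 to 0.49) for *Hmx3*.

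The difference in mean log2 CPM was nearer 0 than the fitted value for *Six6* (-0.05), *Nr5a1* (-0.07), *Otp* (-0.11), *Fezf1* (-0.12) and *Rax* (-1.37). For *Nkx2-1* (-0.48) and *Six3* (-0.41) it was close to the fitted value. An exact two-sided permutation test of this difference used the 70 labellings of the 8 brains. The test gave p-values between 0.143 (*Rax*) and 0.943 (*Six6*), where the smallest p the design allows is 0.0286. Without 0 ppm brain 3, 9 of the 10 genes had a negative log2 fold change, and without 0 ppm brain 4, 8 of 10 did: *Hmx3* had a log2 fold change of 0.09 without 0 ppm brain 3, and *Nr5a1* and *Hmx2* had 0.19 and 0.12 without 0 ppm brain 4.

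Per kilobase of exon, *Otp* had the highest mean level over the 8 brains (4.71 ± 2.01 CPM per kb, SD, n = 8), followed by *Nkx2-1* (4.54 ± 2.28), *Six3* (4.01 ± 0.99) and *Fezf1* (2.22 ± 0.83). The order of the first 3 was not fixed, since *Otp* exceeded *Nkx2-1* in 4 of 8 brains and *Nkx2-1* exceeded *Six3* in 3 of 8. Scaled by the longest transcript, *Six3* came first with 5.94 CPM per kb, and *Nr5a1* came last with 0.174, below *Rax* with 0.201. *Six3* exceeded *Fezf1*, and *Fezf1* exceeded *Hmx3* (0.685 ± 0.363), in 8 of 8 brains. *Sim1* (0.595 ± 0.228), *Six6* (0.408 ± 0.239) and *Hmx2* (0.270 ± 0.178) followed, each above the next in 5 to 7 of 8 brains, and the lowest levels per kilobase were those of *Nr5a1* (0.123 ± 0.072) and *Rax* (0.098 ± 0.123).

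Differences between brains of one dose were large for these genes. All 10 had an edgeR biological coefficient of variation above the trend for their abundance, which 36% of all tested genes did, and its median over the 10 was 0.330. The coefficient of variation of the CPM was higher among the controls than among the exposed brains for 8 of the 10 genes, against 50.8% of all genes. The highest of the 8 brains was a control for 10 of 10 genes, against 51.5% of all genes. It was 0 ppm brain 3 for *Nkx2-1*, *Six3*, *Sim1* and *Hmx3*, 0 ppm brain 4 for *Otp*, *Nr5a1*, *Fezf1* and *Hmx2*, and 0 ppm brain 1 for *Six6* and *Rax*. Summed over the 10 genes, the level was 47.8, 54.4, 100.4 and 85.0 CPM in the 0 ppm brains and 40.4, 71.0, 51.4 and 56.6 CPM in the 50 ppm brains. Brains 3 and 4 of the controls thus stood above the other 6, and brains 1 and 2 of the controls were within the exposed range.

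**Figure D3:**
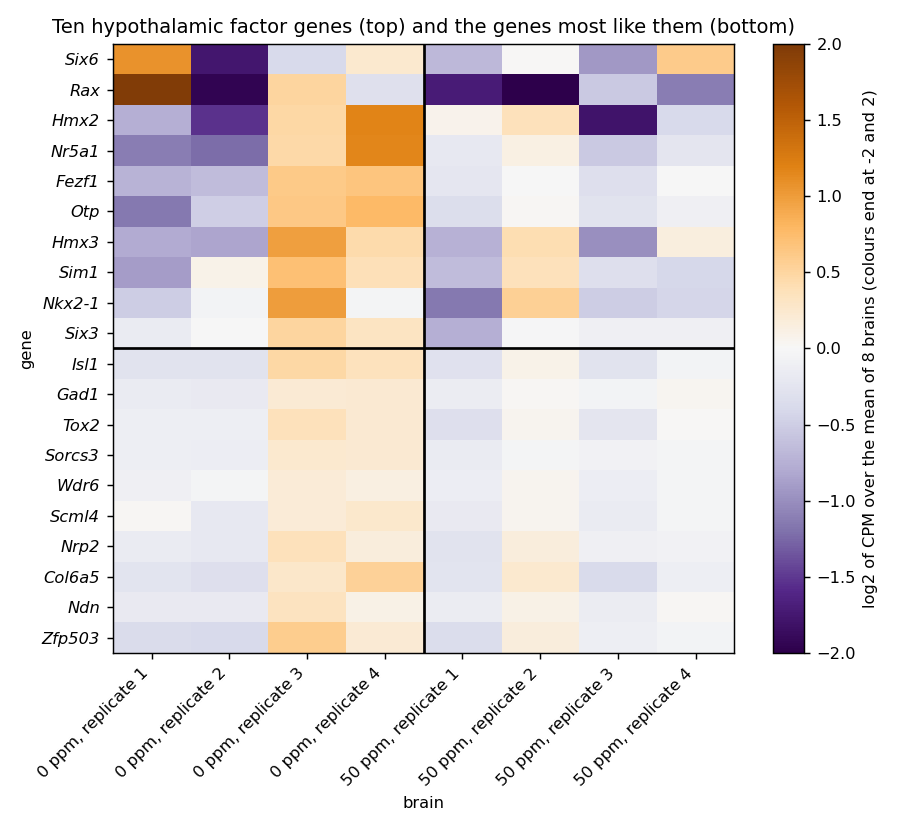
Log2 of each gene's CPM over its own mean of the 8 brains (colour, which ends at -2 and 2) for the 10 genes above the black line and for the 10 other genes most like their mean pattern below it. 0 ppm brains 3 and 4 are above the mean in most rows, while *Six6* and *Rax* are highest in 0 ppm brain 1.

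The genes largely varied together across the 8 brains. Of the 45 pairs, 36 had a positive Pearson r of log2 CPM, and the median r was 0.541 (0.583 after the mean of each dose was removed). The same values were not computed for pairs of other genes, so whether this is particular to these genes was not tested. The 8 points of every pair come from the same libraries, each made from a portion of a pulverised whole brain. Exact permutation p-values adjusted over the 45 pairs were under 0.05 for 6 pairs. *Otp* and *Fezf1* had r = 0.964 (permutation p = 0.000149, adjusted 0.00446) and Spearman's rho = 0.952 (permutation p = 0.00114, adjusted 0.0171), and r was 0.973 without the 2 brains farthest from the median of *Otp*. *Nr5a1* and *Fezf1* had r = 0.959 (permutation p = 0.000198, adjusted 0.00446) and rho = 0.905 (permutation p = 0.00456, adjusted 0.0342), with r = 0.951 without the 2 farthest brains. *Otp* and *Nr5a1*, which mark different nuclei, had r = 0.921 (permutation p = 0.00231, adjusted 0.0301) and rho = 0.905 (permutation p = 0.00456, adjusted 0.0342), with r = 0.871 without the 2 farthest brains.

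*Nr5a1* and *Hmx2* had r = 0.883 (permutation p = 0.00402, adjusted 0.0301) and rho = 0.929 (permutation p = 0.00223, adjusted 0.0251), with r = 0.737 without the 2 farthest brains. *Nkx2-1* and *Sim1* had r = 0.880 (permutation p = 0.00298, adjusted 0.0301) and rho = 0.857 (permutation p = 0.0107, adjusted 0.0482), with r = 0.819 without the 2 farthest brains. *Fezf1* and *Hmx3* had r = 0.873 (permutation p = 0.00375, adjusted 0.0301) and rho = 0.857 (permutation p = 0.0107, adjusted 0.0482), with r = 0.755 without the 2 farthest brains. Within a dose these 6 pairs kept r between 0.844 and 0.977 among the controls and between 0.672 and 0.979 among the exposed brains, each over 4 brains. The neighbours *Hmx2* and *Hmx3* had r = 0.792 (permutation p = 0.0224, adjusted 0.0721) and rho = 0.952 (permutation p = 0.00114, adjusted 0.0171), with r = 0.741 without the 2 farthest brains.

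*Six6* and *Rax* were in none of these pairs. The r of *Rax* with the 8 genes other than *Six6* was between -0.260 (*Sim1*) and 0.274 (*Six3*), and that of *Six6* with the genes other than *Rax* was between -0.274 (*Sim1*) and 0.416 (*Hmx2*), and none of these had an adjusted p under 0.05. For *Rax* these values rest on few brains. Without the 2 brains farthest from the median of the first gene of each pair, r was 0.836 with *Otp*, 0.822 with *Fezf1*, 0.762 with *Hmx3*, 0.714 with *Sim1*, 0.688 with *Nr5a1* and 0.475 with *Hmx2*, where *Rax* was the first gene, and -0.686 with *Nkx2-1* and -0.202 with *Six3*, where it was the second. For *Six6* the same values lay between -0.162 (*Nkx2-1*) and 0.575 (*Hmx3*). *Six6* and *Rax* had r = 0.526 with each other (permutation p = 0.181, adjusted 0.340; rho = 0.476, permutation p = 0.243, adjusted 0.405), which was -0.139 without the 2 farthest brains. The paralogues *Six3* and *Six6* had r = 0.0757 (permutation p = 0.867, adjusted 0.992; rho = -0.214, permutation p = 0.619, adjusted 0.796), and -0.0862 without the 2 farthest brains.

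**Figure D4:**
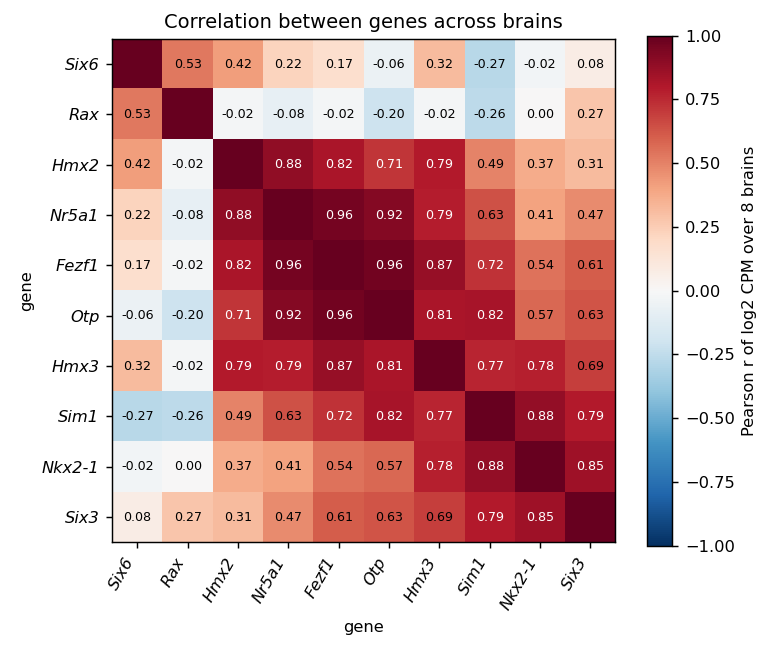
Pearson r of log2 CPM over the 8 brains for each pair of the 10 genes (colour and printed value). *Hmx2*, *Nr5a1*, *Fezf1*, *Otp*, *Hmx3*, *Sim1*, *Nkx2-1* and *Six3* form a block of positive values, and *Six6* and *Rax* lie outside it over all 8 brains.

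Among 14596 other genes with a mean of at least 1 CPM, the one most like the mean pattern of the 10 over the 8 brains was *Isl1* (r = 0.992), which encodes a LIM homeodomain factor of arcuate, striatal and motor neurons. It was at 15.6, 15.7, 26.3 and 24.1 CPM in the 0 ppm brains and at 15.4, 19.98, 15.7 and 18.3 CPM in the 50 ppm brains. *Gad1* (r = 0.959), which encodes an enzyme that makes the transmitter GABA, was next. It was followed by *Tox2* (0.953), *Sorcs3* (0.951), *Wdr6* (0.949), *Scml4* (0.944), *Nrp2* (0.943), *Col6a5* (0.936), *Ndn* (0.936) and *Zfp503* (0.934). These r were the highest of many and are given as a description. None of the 10 had an unadjusted p under 0.05 between doses, and *Tox2* came nearest (log2 fold change -0.22, unadjusted p = 0.0634).

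Other transcription factors of the hypothalamus were also mostly lower. Of the 35 tested, 26 had a fitted level below that of the controls and 9 above, with a median log2 fold change of -0.20. An unadjusted p under 0.05 was found for 7 with lower levels, against 1.44% of all genes, and for 1 with a higher level, against 2.31%, and none passed the adjusted threshold. *Prox1*, a homeodomain gene also used in the thalamus and hippocampus, was at 66.1 ± 5.0 CPM in the controls and 53.3 ± 6.6 CPM in the exposed brains (SD, n = 4 each), a log2 fold change of -0.31 (SE 0.09, unadjusted p = 0.00268 in edgeR). *Bsx*, which encodes a factor of arcuate feeding neurons, was at 2.44 ± 1.38 CPM against 1.10 ± 0.46 CPM (SD, n = 4 each). *Lhx9*, a LIM homeodomain gene, was at 57.8 ± 12.02 CPM against 46.7 ± 5.6 CPM.

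In the list of signals that pattern the hypothalamus, which holds secreted ligands together with receptors and nuclear effectors of their pathways, 6 of 19 genes were below and 13 above, with a median of 0.01 and no unadjusted p under 0.05 (*Bmp4*, *Wnt8b* and *Fgf10* had the smallest, 0.0591, 0.0605 and 0.130). Of 30 genes for hypothalamic and related peptides, 18 were below and 12 above, with a median of -0.05. *Pmch*, which encodes melanin-concentrating hormone of the lateral hypothalamus, was at 4.30, 3.68, 6.47 and 9.68 CPM in the 0 ppm brains and at 2.28, 1.861, 3.89 and 4.01 CPM in the 50 ppm brains. Its 2 highest brains were controls and its 2 lowest were exposed, with overlap between. Its log2 fold change was -1.01 (SE 0.28), with an unadjusted p of 0.00223 and an adjusted p of 0.768 in edgeR. The other peptide genes named above as present in every brain were also lower. Their log2 fold changes were -1.01 for *Hcrt*, -0.45 for *Oxt*, -0.34 for *Pomc*, -0.23 for *Avp* and -0.20 for *Agrp*. None of these had an unadjusted p under 0.05 in edgeR, and *Hcrt* and *Oxt* had no more than 28 reads in any brain. *Nts*, for neurotensin, had a log2 fold change of -0.52 (SE 0.19, unadjusted p = 0.0129), and *Nms*, for neuromedin S, had 1.63 (SE 0.68, unadjusted p = 0.0280) at no more than 14 reads per brain. In the list of hypothalamic receptors, which also holds the ligand gene *Bdnf* of the peptide list, none of 21 genes had an unadjusted p under 0.05, with a median of 0.01, and *Prlr*, *Npy5r* and *Mc4r* came nearest (0.0561, 0.156 and 0.300). Of 13 genes of tanycytes, which also use *Rax*, 10 were above the controls, with a median of 0.07. *Mest* was lower (log2 fold change -0.23, unadjusted p = 0.0113) and *Col23a1* higher (0.21, unadjusted p = 0.0423), and *Tgfb2* was at 0.18 (unadjusted p = 0.0935).

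Genes of regions and tissues that share these factors or adjoin the hypothalamus also differed between brains. 0 ppm brain 1, which held the most *Rax* and *Six6*, was also the highest of the 8 for 6 of 16 eye genes, and 0 ppm brain 2 was the highest for 5 others. The summed level of the 16 genes was 58.1, 84.6, 55.8 and 55.5 CPM in the 0 ppm brains and 50.9, 56.7, 69.8 and 59.7 CPM in the 50 ppm brains. In this sum 0 ppm brain 2 was the highest and 0 ppm brain 1 did not stand out. In the mean log2 CPM of the 15 tested eye genes, where abundant genes weigh less, 0 ppm brain 1 was instead the highest (0.319). The next was 50 ppm brain 3 (0.055), and the lowest was 50 ppm brain 4 (-0.407). The following genes are among those that peaked in 0 ppm brain 1. *Crx*, a photoreceptor and pineal gland gene, was at 2.56, 0.930, 0.686 and 0.310 CPM in the 0 ppm brains and at 0.246, 0.421, 0.428 and 0.265 CPM in the 50 ppm brains (log2 fold change -1.71, SE 0.50, unadjusted p = 0.00327). *Cryaa*, of the lens, had 41 reads in 0 ppm brain 1 (1.40 CPM) and at most 0.214 CPM elsewhere. By contrast, *Rpe65* of the pigment epithelium had no read in 0 ppm brain 1 and was at no more than 0.0744 CPM in any brain. Over the whole eye list, 11 of 15 tested genes were lower, against 51% of all genes, with a median of -0.21. An unadjusted p under 0.05 was found for 1, with a lower level, against 1.44% of all genes. The part of eye or pineal RNA in the values of *Rax* and *Six6* was not tested.

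Pituitary hormone genes and *Pou1f1* were near 0: *Fshb* had no read in any brain, *Gh* and *Prl* at most 1, and *Pou1f1* at most 2. Of the tested genes, *Cga* and *Lhx3* were higher with unadjusted p-values of 0.0158 and 0.0426 in edgeR at no more than 17 reads. That was 2 of 11, against 2.31% of all genes with a higher level. *Tshb* had an unadjusted p of 0.0918 at no more than 4 reads. Other genes of the list, which the brain also uses, were higher, such as *Pcsk1* at 5.75 CPM in the controls and 5.88 CPM in the exposed brains on average. The summed level of the pituitary list, mostly *Nr4a2*, which midbrain neurons also use, was 62.0 to 118.2 CPM in the controls and 71.4 to 81.6 CPM in the exposed brains. In the list of the medial ganglionic eminence and striatum, which use *Nkx2-1*, *Six3* and *Isl1*, 13 of 16 genes were lower, against 51% of all genes. The median was -0.14. *Lhx6* (-0.22, unadjusted p = 0.0117) and *Drd1* (-0.35, unadjusted p = 0.0137) were lower and *Ebf1* (0.42, unadjusted p = 0.0116) was higher. The summed level of that list was 957.5 to 1062 CPM in the controls and 869.3 to 1042 CPM in the exposed brains.

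In the telencephalon list 14 of 16 genes were lower, against 51% of all genes. An unadjusted p under 0.05 was found for 4 with lower levels, against 1.44% of all genes. Among the 4 were *Eomes* (-0.60), *Bcl11b* (-0.21) and *Emx2* (-0.29). The median was -0.08 and the summed level was 1844 to 2911 CPM in the controls and 2153 to 2533 CPM in the exposed brains. In the thalamus list 9 of 14 were lower. An unadjusted p under 0.05 was found for 3 with lower levels, again against 1.44% of all genes. Of the 3, *Barhl2* (-0.56) was not already named. The median was -0.25 and the summed level was 561.4 to 874.6 CPM in the controls and 597.8 to 743.4 CPM in the exposed brains.

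Genes of the brainstem and spinal cord were mostly higher in the exposed brains. Of 29 tested, 23 were higher and 16 had an unadjusted p under 0.05 with a higher level, against 2.31% of all genes, and the median log2 fold change was 1.34. *Prrxl1* of dorsal horn neurons had 2.71 (SE 0.59), *Hoxc4* 1.91 (SE 0.62), *Lbx1* 1.78 (SE 0.55), *Glra1*, for a glycine receptor subunit, 1.42 (SE 0.41), and *Dbh* of noradrenergic neurons 1.38 (SE 0.42), and none passed the adjusted threshold. The summed level of the 31 genes was 123.9, 171.8, 212.5 and 231.6 CPM in the 0 ppm brains, and 330.3 CPM in 50 ppm brain 1 and 246.1 to 254.8 CPM in the other 3 exposed brains, without overlap. Among the controls, brains 3 and 4 were highest both in this sum and in the summed level of the 10 hypothalamic factors. Among the exposed, brain 1 was the highest in this sum and the lowest in that of the 10 factors.

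With the mean log2 CPM of the brainstem and spinal cord list as a covariate, the median log2 fold change of the 10 factors was -0.97 in place of -0.37. An unadjusted p under 0.05 was then found for 8 of 10, all lower at 50 ppm, against 4.15% of all genes in that fit in either direction and 2.04% with a lower level. *Otp* passed the adjusted threshold (log2 fold change -1.13, adjusted p = 0.0188 in edgeR), as did 4 of all 23113 genes. *Six6* turned to 0.31 and *Rax* to -0.94 with an unadjusted p of 0.202. The list behind the score was written with earlier results of these data known. Without the score in the fit, 16 of its 29 tested genes were higher with an unadjusted p under 0.05. The counts and the call of *Otp* in the fit with the score are therefore descriptions. The score did not overlap between the doses (-0.37 to 2.02 at 0 ppm and 2.21 to 2.57 at 50 ppm). In this fit, dose and score can thus be separated only through the spread within doses. Most of that spread lay with 0 ppm brains 1 (-0.37) and 2 (0.66), since 0 ppm brains 3 (2.02) and 4 (1.94) were close to the exposed brains.

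**Figure D5:**
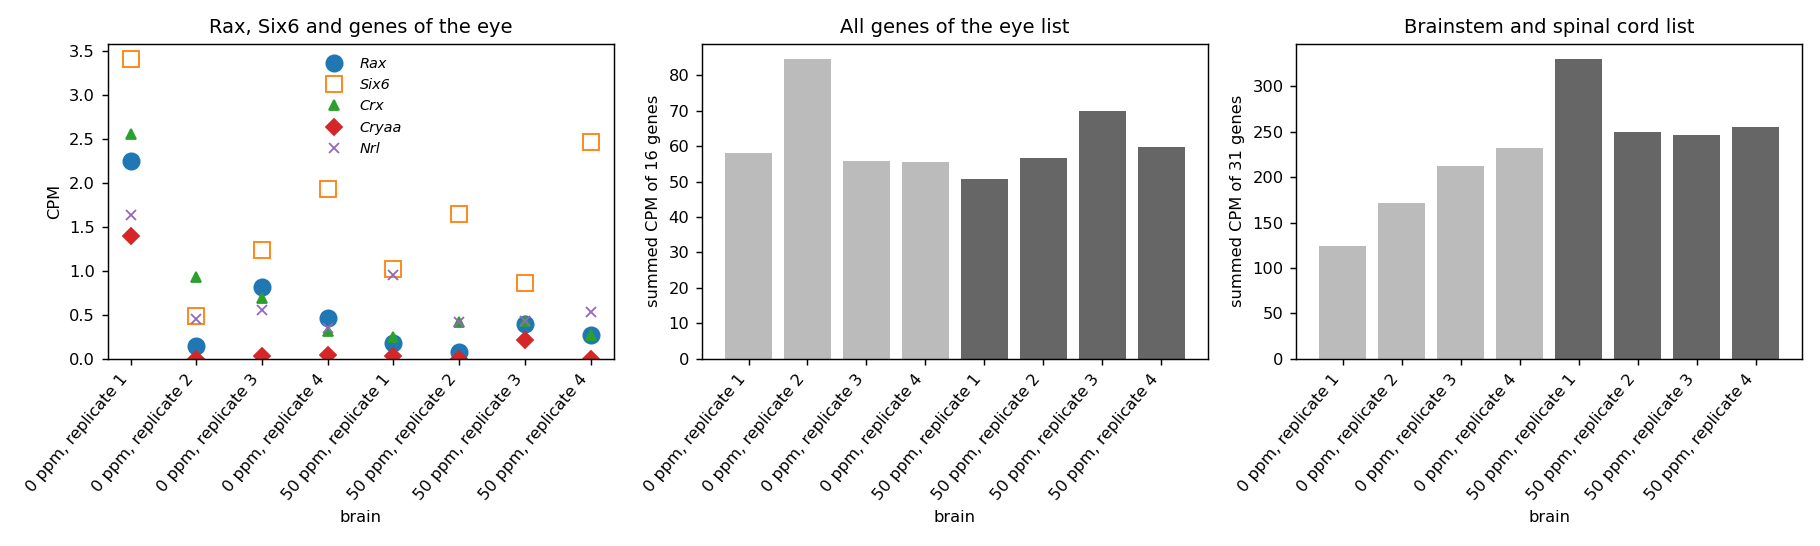
Left, CPM of *Rax*, *Six6* and 3 genes of the eye, shown because they peaked in 0 ppm brain 1, in each of the 8 brains; middle, the summed CPM of all 16 eye genes; right, the summed CPM of the 31 brainstem and spinal cord genes in the same brains (bars from 0, 0 ppm light and 50 ppm dark). 0 ppm brain 1 is highest for all 5 genes on the left, 0 ppm brain 2 is highest in the middle at 84.6 CPM, and every 50 ppm bar on the right is above every 0 ppm bar.

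Blood genes varied from 128.3 to 312.7 CPM in sum among the controls and from 100.9 to 404.4 CPM among the exposed brains, with none of 10 at an unadjusted p under 0.05 (*Hbb-y* had the smallest, 0.136, and *Slc4a1* had 0.336). Of 10 meningeal genes 8 were higher, with a median of 0.09, and *Islr* (0.19, unadjusted p = 0.0420) had a smaller p than *Col1a2* and *Foxc1*. Of 9 general neuronal genes 6 were higher, with a median of 0.01: *Nefl*, a neurofilament gene, had 0.48 (unadjusted p = 0.00260), *Snap25* 0.14 and *Elavl3* -0.08.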

How the data were processed

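RNA-seq was performed by the authors on poly(A) RNA from pulverised whole brains of newborn B × C females (4 per dose, each from a different litter), as directional single-end libraries. The authors trimmed reads, aligned them with STAR to the B genome (GRCm38, Ensembl annotation), counted them per gene with htseq-count and deposited the raw counts without normalisation; tool versions and the strand setting are not given in the sources used here. A second deposited table, for the CAST/EiJ alignment, was not used here, because its identifiers could not be paired with the symbols of these genes.

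The study's own filter was kept, so that genes at 0 in over 2/3 of the 8 libraries (6 or more) were set aside. Counts were tested with edgeR (4.0.16, R 4.3.3; TMM, glmQLFit and glmQLFTest, treatment only), with Benjamini-Hochberg adjustment over 23113 genes and a threshold of 0.05. Standard errors were the absolute log2 fold change divided by the square root of F. Permutation tests and correlations used log2 CPM with a prior count of 2 (scipy 1.17.1). Names and exon lengths came from the GENCODE annotation of GRCm38, which named 49326 of 49585 identifiers. The 10 genes were chosen, and the gene lists written, with earlier results of these data known. All 10 were named, with the 3 genes of each list with the smallest unadjusted p (up to 5 where more were under 0.05) and the 10 genes most like the mean pattern; some single genes of the lists are not reported here. *Hcrt*, *Avp*, *Pomc*, *Agrp*, *Oxt*, the eye genes other than the first 3 and the pituitary hormones were named as markers, and *Rpe65*, *Nr4a2*, *Pcsk1* and *Bdnf* after their values were seen. Alternatives were DESeq2 (1.42.0), its size factors, 2 other filters, a robust fit, limma-voom (limma 3.58.1), a covariate scoring brainstem and spinal cord genes, a prior count of 0.5, and each library left out. The code was tested on simulated data. Total counts of 22916434 to 30708087 limit the precision of the rarest genes, of which *Rax* had 2 to 66 reads.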

Additional observations from a re-analysis of the deposited data

Results flagged for a closer look

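*Six3* in 50 ppm brain 1 was at 12.9 CPM, far below the other 3 exposed brains (20.3 to 21.6 CPM), with a gap to the nearest of them of 0.85 of the group's range, above Dixon's 95% critical value for 4 samples. It was the only one of 20 groups (10 genes at 2 doses) that met this criterion, and chance gives about 1 in 20. The same brain was the lowest of the 8 for *Nkx2-1* and the highest for the summed brainstem and spinal cord genes (330.3 CPM).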

How the results depend on the processing

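The 10 genes kept their sign and their side of the adjusted threshold under DESeq2, its size factors, both other filters, the robust fit and limma-voom, with median log2 fold changes from -0.42 to -0.36. The number of all genes called was 4 in the reported fit, 18 with DESeq2, 52 without the filter, 2 with at least 10 counts in 4 libraries, 1 with limma-voom and 2 to 20 with a library left out. None of the 10 genes was among them, except that 1, *Otp*, was called with the covariate that scores brainstem and spinal cord genes. That fit gave 8 of the 10 genes an unadjusted p under 0.05, against 4.15% of all genes, and a median of -0.97. The log2 fold change was 0.31 for *Six6* and -0.13 for the median of the list from which the score was made. That list was written with earlier results known. The robust fit left 1 of the 10 genes under 0.05 (*Rax*), against 3.6% of all genes. Leaving out a library gave 1 to 4 such genes, against 3.2% to 5.08% of all genes. The medians then ranged from -0.59 (without 0 ppm brain 1) to -0.19 (without 0 ppm brain 3). With a library left out, the log2 fold change ranged from -0.59 to 0.28 for *Six6*, -0.63 to 0.0903 for *Hmx3*, -0.61 to 0.19 for *Nr5a1*, -0.72 to 0.12 for *Hmx2*, -0.89 to -0.07 for *Nkx2-1* (highest without 0 ppm brain 3), -0.57 to -0.02 for *Otp* and -0.46 to -0.03 for *Fezf1* (both highest without 0 ppm brain 4), -0.64 to -0.15 for *Sim1* (highest without 0 ppm brain 3), -0.51 to -0.26 for *Six3* and -2.46 to -1.10 for *Rax*. The difference in mean log2 CPM ranged from -0.53 to 0.35 for *Six6*, -0.47 to 0.16 for *Otp*, -0.37 to 0.32 for *Nr5a1*, -0.35 to 0.11 for *Fezf1*, -0.67 to 0.16 for *Hmx2* and -0.47 to 0.0905 for *Hmx3*. The cause of these reversals was not tested. The alignment to the C genome was not run, because its identifiers could not be paired with these genes. No paired analysis was possible because the labels carry no replicate numbers, and those used here follow the order of the samples. Depth limits *Rax*, *Nr5a1*, *Hmx2* and *Hmx3*, which had 2 to 66 reads per library.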
